A study of Mus musculus with 17 samples.

Results

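The 10 genes described here encode proteins that bind actin or tie it to the cell membrane. They were chosen by name, with their earlier results in these data known, as the rows of Capg, Gsn, Msn, Ezr, Rdx, Tmsb4x, Tmsb10, Flna, Actn1 and Tagln2. All 10 were found among the 55471 Ensembl identifiers of the first batch of libraries and the 55414 of the second. RNA was recovered with HA-tagged ribosomes from the microdissected corpus callosum, the white matter between the hemispheres, of male mice. All groups carried 1 allele of GFAP-Cre and the RiboTag allele, given as GFAP-Cre+/- Rpl22HA/wt, and entered the study at 8 to 9 weeks of age. For 5 weeks the cuprizone groups were fed 0.2% cuprizone in their chow; cuprizone binds copper and causes loss of oligodendrocytes and myelin. They were sampled at 5 weeks of the study, after 0.5 weeks back on normal chow (5.5 weeks), or after 2 weeks on it (7 weeks). The mock groups were age-matched mice on normal chow, sampled at the same 3 times.

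GFAP-Cre decides which cells carry tagged ribosomes, and no library of unselected RNA was used here, so how far astrocyte RNA was enriched was not tested. The labels call every library astrocyte RNA. Gfap, a marker of astrocytes, averaged 5425 ± 577 CPM in cuprizone and 1146 ± 43.5 CPM in mock libraries at 5.5 weeks (SD, n = 3 and 2). The other 7 astrocyte markers were also present. Markers of neurons were abundant as well, with Snap25 at 4786 ± 429 CPM in cuprizone and 5073 ± 526 CPM in mock libraries of that week. The RNA therefore represents a mixture of cells, in which fewer cells of a type and less RNA per cell cannot be told apart.

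In 8 of 17 libraries, 46.6% to 96.2% of the genes with 500 or more counts lay 1 to 10 counts above another library of their group. These 8 were taken as repeats of that library and not used as samples, which left 9. At 5.5 weeks there were 3 cuprizone libraries (1, 2 and 3) and 2 mock libraries (1 and 3). The 5-week comparison had only cuprizone 1 and mock 2, and the 7-week comparison only cuprizone 2 and mock 3, so differences at those times have no replicate check and no p-value is given for a gene there. Per the labels, batch 1 holds the 5-week libraries and batch 2 all later ones, so that a difference between 5 weeks and a later time cannot be told apart from the batch. Total counts of the 9 libraries ranged from 20797535 to 30400048. The 7-week cuprizone library stood apart, with 34576 genes counted at least once against at most 23980 in the others. It also carried far more RNA of microglia and blood vessels, given beside the results it touches.

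Actin cycles between single subunits and filaments, and the filaments beneath the membrane form the cell cortex. Gelsolin and CapG cap the growing ends of filaments, thymosins hold single subunits in reserve, and filamins and alpha-actinins join filaments into networks and bundles. Moesin, ezrin and radixin, together called ERM proteins, link the cortex to membrane proteins. Astrocytes carry ezrin in their fine processes and change shape when they become reactive, and several of these genes are also active in microglia, endothelium or oligodendrocytes.

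The windows around the transcription starts of the members were searched for motifs, as a description of sequence. All 10 members matched RefSeq promoter windows (build GRCm38.p6), each running from 250 bases before to 50 bases after a start, with 15 windows in all. Both strands were searched for the AP-1 motif TGANTCA, the TEAD core GGAATG, the STAT motif TTCNNNGAA and the CArG box of SRF. The TEAD core was found in Flna, first base at -146, and in Tagln2, at -118 and -80, both on the minus strand of the gene, where it reads CATTCC. It is a common string, held by 14.7% of all 32851 windows of this length. The AP-1 motif was found in Ezr at -32 and is held by 7.81% of all windows. The letters of the CArG box (1.63% of all windows) and of the STAT motif (8.30%) are not in the members' windows. By gene, 2 of 10 members held the TEAD core and 1 the AP-1 motif, beside 16.6% and 8.97% of all 27025 genes. Nothing is read from these counts. The matches are descriptions of sequence and not evidence of binding.

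Below are the windows of the members with a match and, for comparison, those of Capg and Msn, which were higher in cuprizone libraries at all 3 times. They lie at chr6:72549397-72549696 on the plus strand (Capg), chrX:96095795-96096094 on the plus strand (Msn), chr1:172499996-172500295 on the plus strand (Tagln2), chrX:74246485-74246784 on the minus strand (Flna) and chr17:6782731-6783030 on the minus strand (Ezr). Each is written 5′ to 3′ along the gene, and capitals mark the motif matches, TEAD in Tagln2 and Flna and AP-1 in Ezr.
Capg: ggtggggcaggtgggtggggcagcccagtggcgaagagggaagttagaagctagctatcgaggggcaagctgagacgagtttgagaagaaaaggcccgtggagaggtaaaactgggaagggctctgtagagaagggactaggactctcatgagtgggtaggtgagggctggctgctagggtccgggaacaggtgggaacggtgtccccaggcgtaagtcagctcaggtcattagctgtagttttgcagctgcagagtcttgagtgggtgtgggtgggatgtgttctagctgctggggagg
Msn: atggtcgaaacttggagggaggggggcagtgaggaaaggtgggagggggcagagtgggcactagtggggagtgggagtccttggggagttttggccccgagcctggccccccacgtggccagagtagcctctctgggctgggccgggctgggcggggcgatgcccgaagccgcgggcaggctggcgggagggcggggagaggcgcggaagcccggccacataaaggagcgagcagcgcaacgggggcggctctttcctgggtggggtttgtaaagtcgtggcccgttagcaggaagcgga
Tagln2: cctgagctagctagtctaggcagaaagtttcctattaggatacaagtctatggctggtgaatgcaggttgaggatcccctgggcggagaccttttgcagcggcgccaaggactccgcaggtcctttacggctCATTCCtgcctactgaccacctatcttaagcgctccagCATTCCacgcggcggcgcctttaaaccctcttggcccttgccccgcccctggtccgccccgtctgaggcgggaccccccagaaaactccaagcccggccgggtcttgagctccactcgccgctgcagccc
Flna: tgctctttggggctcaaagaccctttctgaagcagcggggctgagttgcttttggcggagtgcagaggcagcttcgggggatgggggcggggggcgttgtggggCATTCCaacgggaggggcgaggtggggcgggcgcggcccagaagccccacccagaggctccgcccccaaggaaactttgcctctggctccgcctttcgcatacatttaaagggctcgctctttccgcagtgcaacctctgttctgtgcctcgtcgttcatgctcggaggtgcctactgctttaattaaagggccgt
Ezr: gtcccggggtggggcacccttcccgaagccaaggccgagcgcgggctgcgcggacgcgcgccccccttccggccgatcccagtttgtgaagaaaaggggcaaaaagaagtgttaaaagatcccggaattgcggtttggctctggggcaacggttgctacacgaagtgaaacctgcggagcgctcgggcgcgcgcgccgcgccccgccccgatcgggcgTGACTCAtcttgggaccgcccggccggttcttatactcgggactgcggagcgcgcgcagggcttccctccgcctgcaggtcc

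Levels below are CPM, read counts relative to library size, scaled within each week by TMM, a method that corrects for differences in library makeup. The difference at 5.5 weeks is the log2 fold change of the edgeR fit with its standard error (SE). At 5 and 7 weeks it is the ratio of normalized counts of the 2 libraries, with an exact (Clopper-Pearson) 95% interval that reflects counting error and leaves out the variation between mice. Since the members were chosen by this very contrast, their values are a description. Calls of members by the fit across all genes are given only as counts beside the share of all genes called, and nothing is read from them.

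Capg and Gsn, which cap filament ends, gave opposite pictures at 5 weeks. Capg (ENSMUSG00000056737, chromosome 6), an end-capping protein that does not sever filaments and is best known from macrophages, had 22.8 CPM in the 5-week cuprizone library and 4.64 CPM in the mock library. At 5.5 weeks it had 9.36, 9.12 and 6.87 CPM in cuprizone libraries, against 1.49 and 1.41 CPM in mock libraries. It had 20.3 CPM in the 7-week cuprizone library and 2.28 CPM in the mock library. On these scales, set within each week, all 5 cuprizone libraries lay above all 4 mock libraries. The ratio was 4.91 (95% interval 3.93 to 6.18) at 5 weeks, the log2 fold change 2.54 (SE 0.23) at 5.5 weeks, and the ratio 8.89 (6.82 to 11.8) at 7 weeks. These values rest on 38 to 95 counts per mock library.

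Gsn (ENSMUSG00000026879, chromosome 2) encodes gelsolin, which severs and caps filaments and in the brain is prominent in oligodendrocytes. It had 106 CPM in the 5-week cuprizone library and 267 CPM in the mock library, a ratio of 0.396 (0.377 to 0.416). At 5.5 weeks the levels were 799, 866 and 644 CPM in cuprizone libraries, against 398 and 311 CPM in mock libraries, a log2 fold change of 1.12 (SE 0.15). The 7-week cuprizone library had 428 CPM and the mock library 320 CPM, a ratio of 1.34 (1.30 to 1.38). Gsn was thus lower in the cuprizone library at 5 weeks, higher without overlap at 5.5 weeks and higher by a smaller ratio at 7 weeks. The summed level of 11 mature oligodendrocyte markers was 10510 CPM in the 5-week cuprizone library and 15424 CPM in the mock library. At 5.5 weeks that sum was 21667, 22833 and 18634 CPM in cuprizone libraries, against 15562 and 16277 CPM in mock libraries, so it stood on the same side as Gsn at both times. At 7 weeks it was 14333 CPM in the cuprizone library and 20588 CPM in the mock library, the opposite side to Gsn. The part of oligodendrocyte RNA in the Gsn values was not tested.

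Per kilobase of merged exon, which allows genes to be compared, Capg was the minor partner of Gsn throughout. Capg made up 21.2% of the CPM per kb of both genes in the 5-week cuprizone library and 2.13% in the mock library. At 5.5 weeks its share was 1.44%, 1.30% and 1.31% in cuprizone libraries, against 0.465% and 0.562% in mock libraries, and at 7 weeks 5.58% in the cuprizone library and 0.882% in the mock library. The share was higher in every cuprizone library than in the mock libraries of its week, including 5.5 weeks, when both genes were higher.

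Among the ERM linkers, Msn was higher in every cuprizone library, whereas Ezr and Rdx were not. Msn (ENSMUSG00000031207, chromosome X) encodes moesin, the ERM protein most abundant in endothelial and immune cells. It had 78.3 CPM in the 5-week cuprizone library and 13.8 CPM in the mock library, a ratio of 5.67 (4.99 to 6.45). The 5.5-week levels were 50.6, 43.6 and 42.4 CPM in cuprizone libraries, against 19.7 and 22.1 CPM in mock libraries, a log2 fold change of 1.12 (SE 0.13). Levels of 67.7 CPM in the 7-week cuprizone library and 24.9 CPM in the mock library gave a ratio of 2.72 (2.49 to 2.98). The 4 mock libraries stayed between 13.8 and 24.9 CPM, well under the lowest cuprizone library at 42.4 CPM. The small RNA gene Gm24718 overlaps 136 bases of Msn exons on the opposite strand.

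Ezr (ENSMUSG00000052397, chromosome 17) encodes ezrin, an ERM protein found in fine astrocyte processes. It had 219 CPM in the 5-week cuprizone library and 113 CPM in the mock library, a ratio of 1.93 (1.84 to 2.03). The groups overlapped at 5.5 weeks, with 131, 143 and 126 CPM in cuprizone libraries, against 115 and 133 CPM in mock libraries, a log2 fold change of 0.10 (SE 0.11). The 7-week cuprizone library had 90.7 CPM and the mock library 160 CPM, a ratio of 0.567 (0.540 to 0.596). Ezr was therefore on the higher side at 5 weeks and on the lower side at 7 weeks.

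Rdx (ENSMUSG00000032050, chromosome 9) encodes radixin, the remaining ERM protein. It had 167 CPM in the 5-week cuprizone library and 177 CPM in the mock library, a ratio of 0.941 (0.898 to 0.985) whose direction turned with scaling by total count. The 5.5-week groups overlapped, with 196, 227 and 182 CPM in cuprizone libraries, against 178 and 196 CPM in mock libraries, a log2 fold change of 0.11 (SE 0.12). The 7-week ratio was 0.711 (0.683 to 0.740), from 147 CPM in the cuprizone library and 207 CPM in the mock library.

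The share of Msn among the 3 linkers was larger in cuprizone libraries, as the bar plot of ERM shares shows. Per kilobase, Msn made up 10.8% of the ERM sum in the 5-week cuprizone library and 2.92% in the mock library. Its 5.5-week share was 8.87%, 6.94% and 7.96% in cuprizone libraries, against 4.08% and 4.06% in mock libraries. At 7 weeks it was 15.3% in the cuprizone library and 4.05% in the mock library. Ezr and Rdx stayed the main linkers in all 9 libraries, and Ezr alone made up 58.0% of the sum in the 5-week cuprizone library and 46.1% in the mock library.

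**Figure D1:**
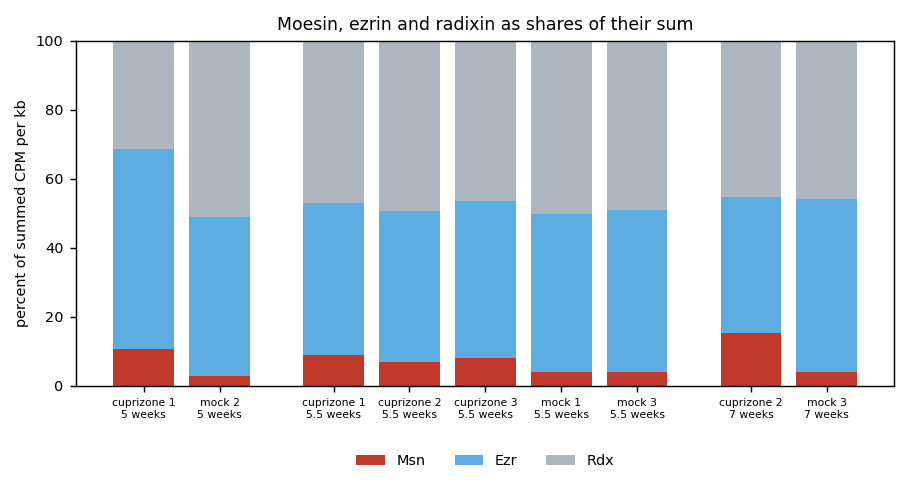
Stacked bars give the share of Msn, Ezr and Rdx in the summed CPM per kb of the 3 genes (percent) in each of the 9 libraries, with cuprizone libraries left of the mock libraries of their week. Msn takes 6.94% to 15.3% in the 5 cuprizone libraries and 2.92% to 4.08% in the 4 mock libraries.

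The thymosins, small peptides that bind single actin subunits, were the members whose values were lowest relative to mock at 5.5 weeks. Tmsb4x (ENSMUSG00000049775, chromosome X) encodes thymosin beta 4. It had 1384 CPM in the 5-week cuprizone library and 1483 CPM in the mock library, a ratio of 0.933 (0.919 to 0.949) that turned direction with scaling by total count. At 5.5 weeks it had 634, 690 and 838 CPM in cuprizone libraries, against 692 and 920 CPM in mock libraries, and the log2 fold change of -0.16 (SE 0.15) came with overlapping groups and turned to 0.07 without mock replicate 3. The 7-week ratio was 0.504 (0.496 to 0.513), from 676 CPM in the cuprizone library and 1341 CPM in the mock library.

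Tmsb10 (ENSMUSG00000079523, chromosome 6) encodes the related thymosin beta 10. It had 221 CPM in the 5-week cuprizone library and 279 CPM in the mock library, a ratio of 0.790 (0.760 to 0.821). At 5.5 weeks the levels were 64.1, 79.7 and 81.8 CPM in cuprizone libraries, against 90.7 and 129 CPM in mock libraries, a log2 fold change of -0.54 (SE 0.16). It had 124 CPM in the 7-week cuprizone library and 169 CPM in the mock library, a ratio of 0.735 (0.703 to 0.769). Tmsb10 was thus on the lower side of mock at all 3 times, without overlap at 5.5 weeks. The size of its 7-week log2 ratio depended on the scale. It was -0.44 with TMM, beside an all-gene median of -0.16, and -0.08 by total count, beside 0.22. Its 5.5-week log2 fold change was -0.26 without mock replicate 3 and -0.78 without mock replicate 1. A gene named Gm9844 shares 99.0% of 413 aligned bases with Tmsb10 and had at most 82 counts in the 5.5-week and 7-week libraries, so reads may be shared between these names.

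Of the filament crosslinkers, Flna was on the higher side at all 3 times and Actn1 was not. Flna (ENSMUSG00000031328, chromosome X) encodes filamin A, which joins filaments into networks and anchors membrane proteins. It had 15.2 CPM in the 5-week cuprizone library and 6.06 CPM in the mock library, a ratio of 2.52 (2.04 to 3.12). The 5.5-week levels of 11.7, 9.57 and 11.1 CPM in cuprizone libraries lay close above the 9.00 and 7.24 CPM of the mock libraries, with a log2 fold change of 0.41 (SE 0.17). It had 31.8 CPM in the 7-week cuprizone library and 5.56 CPM in the mock library, a ratio of 5.72 (4.80 to 6.85). The groups did not overlap, but the difference was much smaller at 5.5 weeks than in the single libraries of the other times.

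Actn1 (ENSMUSG00000015143, chromosome 12) encodes alpha-actinin 1, which bundles filaments at adhesions. Its levels were 23.4 CPM in the 5-week cuprizone library and 27.0 CPM in the mock library, a ratio of 0.869 (0.768 to 0.982). At 5.5 weeks it had 22.9, 42.0 and 23.6 CPM in cuprizone libraries, against 31.5 and 24.8 CPM in mock libraries. The log2 fold change of 0.06 (SE 0.25) had the largest SE of the 10 genes and became -0.28 without cuprizone replicate 2, the library at 42.0 CPM. The 7-week ratio was 1.58 (1.43 to 1.75), from 37.8 CPM in the cuprizone library and 23.9 CPM in the mock library. In the annotation 451 bases of Actn1 exons are overlapped by the antisense genes Gm47767 and Gm47766, and whether counting used the strand is not given in the sources used here.

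Tagln2 (ENSMUSG00000026547, chromosome 1) encodes transgelin 2, a calponin-family protein that binds along filaments. It had 50.9 CPM in the 5-week cuprizone library and 12.3 CPM in the mock library, a ratio of 4.14 (3.60 to 4.76). At 5.5 weeks it had 12.6, 14.1 and 11.1 CPM in cuprizone libraries, against 6.13 CPM in both mock libraries, a log2 fold change of 1.04 (SE 0.17). The 7-week cuprizone library had 18.8 CPM and the mock library 8.52 CPM, a ratio of 2.21 (1.89 to 2.59). Every cuprizone library lay above the mock libraries of its own week.

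**Figure D2:**
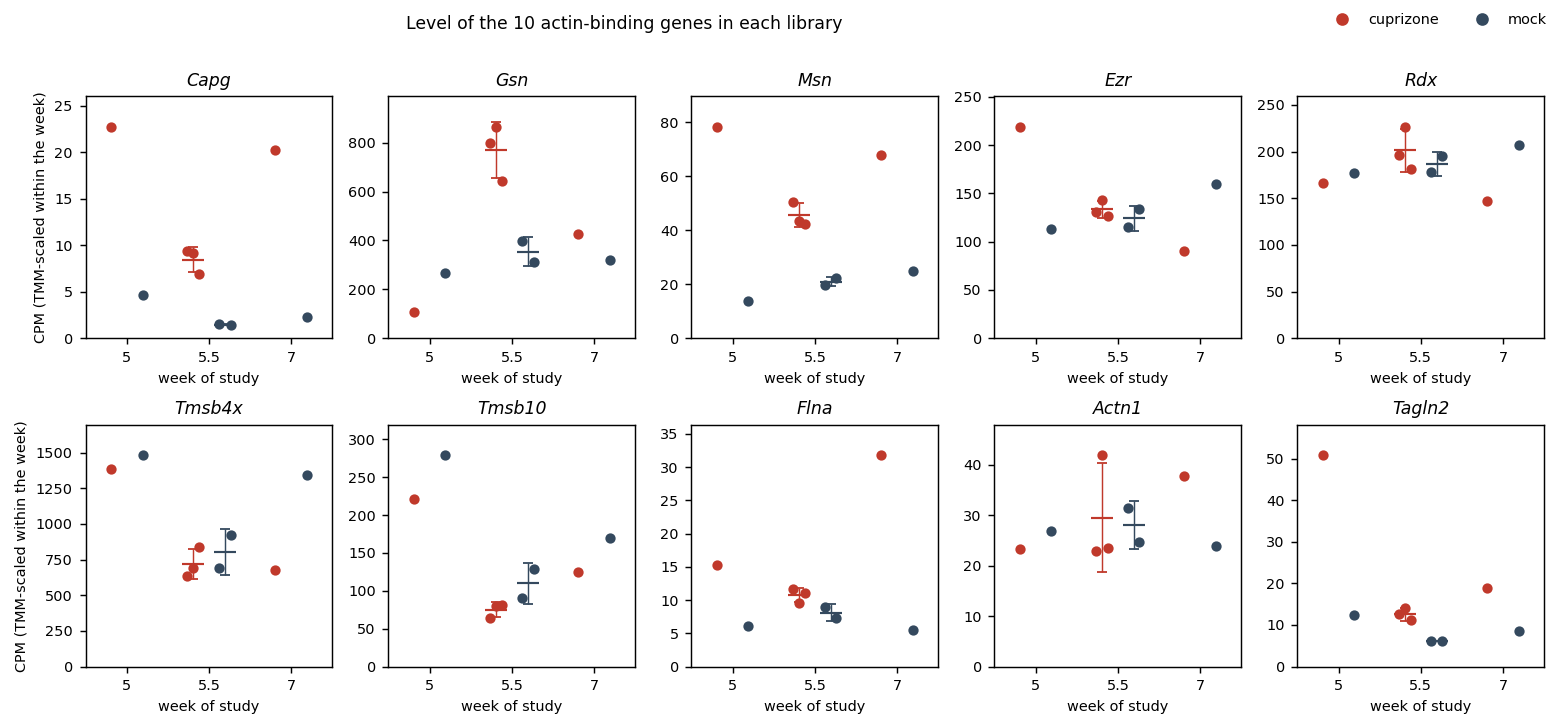
Each panel gives 1 gene, with the level in CPM (TMM-scaled within the week) of each library against the week of the study, cuprizone left of mock; at 5.5 weeks bars give the mean ± SD (n = 3 cuprizone, 2 mock). Capg, Msn and Tagln2 are higher in cuprizone libraries at each time, Gsn is lower at 5 weeks (106 against 267 CPM) and higher at 5.5 weeks, and Ezr, Rdx, Tmsb4x and Actn1 overlap at 5.5 weeks.

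At 5.5 weeks 4 of the 10 members (Capg, Gsn, Msn and Tagln2) had an adjusted p under 0.05 with a higher level in cuprizone libraries. Of all 16086 genes tested, 1.08% were called higher and 0.392% lower. In 5 of 10 members (those 4 and Flna) all cuprizone libraries lay above both mock libraries, and in Tmsb10 all lay below; the shares of all genes were 13.2% and 14.8%. Because this contrast chose the members, nothing is read from these counts. The members' median log2 fold change was 0.26, beside 0.0021 over all genes tested. Leaving out mock replicate 3 ended the call of Gsn, and leaving out either mock library ended that of Tagln2. With each library left out in turn the log2 fold change was 0.97 to 1.31 for Gsn and 0.95 to 1.12 for Tagln2.

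At 5 weeks Capg, Msn, Flna and Tagln2 were at least 2-fold higher in the cuprizone library, where 8.82% of 11570 genes measured were, and Gsn was at least 2-fold lower, where 12.2% were. At 7 weeks the same 4 genes were at least 2-fold higher, where 10.8% of 12208 genes were. Ezr at 5 weeks (log2 ratio 0.95) and Actn1 at 7 weeks (0.66) crossed the 2-fold mark when libraries were scaled by total count (1.05 and 1.02). Tmsb4x at 7 weeks (-0.99) passed it on the lower side with DESeq2 size factors (-1.02). The members' median log2 ratio was 0.43 at 5 weeks and 0.54 at 7 weeks, beside -0.0068 and -0.16 over all genes measured. Scaling by total count in place of TMM shifted log2 ratios by 0.10 at 5 weeks and by 0.36 at 7 weeks. The members with negative log2 ratios at 7 weeks, from -0.44 for Tmsb10 to -0.99 for Tmsb4x, all stayed below the all-gene median under TMM.

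**Figure D3:**
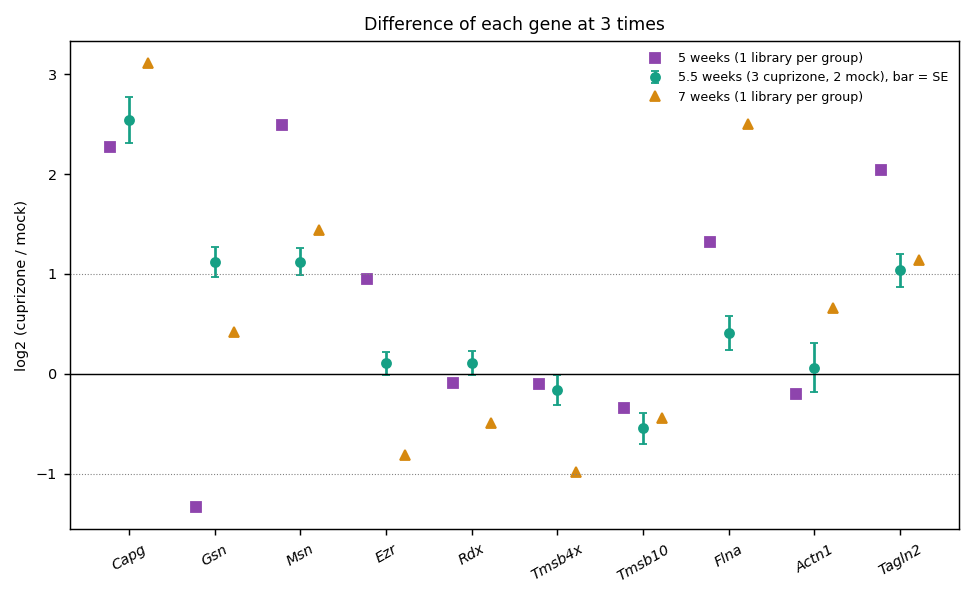
Points give the log2 difference of cuprizone over mock for each gene at 5 weeks (squares, 1 library per group), 5.5 weeks (circles with SE, 3 cuprizone and 2 mock libraries) and 7 weeks (triangles, 1 library per group), with dotted lines at 2-fold. Capg, Msn, Flna and Tagln2 lie above 0 at all 3 times, Tmsb10 lies below 0 at all 3, and Gsn goes to -1.34 at 5 weeks and 1.12 at 5.5 weeks.

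The members covered a wide range of levels. Per kilobase and in mean of mock libraries at 5.5 weeks, Tmsb4x had 588 CPM per kb, Gsn 112, Tmsb10 85.9, Rdx 40.3, Ezr 37.7, Actn1 5.09, Msn 3.31, Tagln2 2.94, Flna 0.864 and Capg 0.573. Neighbours in this order whose libraries overlapped were Gsn with Tmsb10 and Rdx with Ezr. In cuprizone libraries the upper 5 kept this order, with Gsn at 244 CPM per kb and Tmsb10 at 58.9 no longer overlapping. Below them Msn (7.20) and Tagln2 (6.05) stood above Actn1 (5.33), with overlap between neighbours, and Capg (3.34) stood above Flna (1.15). The genes with at least 2-fold higher levels at 5 and 7 weeks were thus among those of lower level in mock libraries.

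The 5.5-week and 7-week libraries belong to 1 batch and were also scaled together. On that scale Flna was 2.73 times its 5.5-week cuprizone mean in the 7-week cuprizone library, Capg 2.22 times, Tmsb10 1.53 times, Tagln2 1.38 times and Msn 1.37 times, each above the range of the 3 earlier libraries. Gsn was 0.514 times its 5.5-week cuprizone mean, Ezr 0.628, Rdx 0.676 and Tmsb4x 0.868, each below that range, and Actn1 lay within it. Mock libraries moved too, with Tmsb4x at 1.50 times, Capg at 1.42 times and Tmsb10 at 1.40 times their 5.5-week mock mean, and Flna at 0.621 times. With 1 library at 7 weeks these are ratios of libraries and were not tested.

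Markers of other cell types also differed between the groups. The summed level of 16 microglial markers was 141 CPM in the 5-week cuprizone library and 61.1 CPM in the mock library. At 5.5 weeks it was 68.9, 97.9 and 67.6 CPM in cuprizone libraries, against 46.1 and 52.1 CPM in mock libraries. Of the 15 markers tested 1 was called higher by edgeR at an adjusted p of 0.00185, Lyz2, a lysozyme of myeloid cells, at 4.55 ± 1.50 CPM in cuprizone and 0.625 ± 0.0960 CPM in mock libraries (SD, n = 3 and 2), a log2 fold change of 2.84. In 11 of 15 all cuprizone libraries lay above both mock libraries, among them Lyz2, Cx3cr1, Csf1r, C1qa, C1qb, C1qc, Trem2, Tyrobp, Ctss and Ptprc, beside 13.2% of all genes tested. P2ry12, which marks resting microglia, averaged 2.47 CPM in cuprizone and 2.46 CPM in mock libraries. Ptprc and Lyz2 were at 0 in the 5-week mock library, and Itgam in both 5-week libraries. Capg, Msn and Tagln2 were higher in the same libraries as this sum, and its part in their values was not tested.

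In the 7-week cuprizone library the microglial sum was 1473 CPM, against 78.8 CPM in the mock library, and all 16 markers were at least 2-fold higher. The sum of 8 endothelial markers, such as Cldn5, a tight junction protein, was 273 CPM in the 7-week cuprizone library and 6.24 CPM in the mock library, again with all 8 at least 2-fold higher. Markers of pericytes and smooth muscle summed to 276 CPM in the cuprizone library and 24.7 CPM in the mock library. The 7-week values of Capg, Msn, Flna and Tagln2 come from this library, and the part of vessel and microglial RNA in them was not tested. At the earlier times the endothelial sum was lower or overlapping, with 0.697 CPM in the 5-week cuprizone library and 4.84 CPM in the mock library. At 5.5 weeks it was 3.11, 5.33 and 6.06 CPM in cuprizone libraries, against 7.03 and 4.71 CPM in mock libraries. Cdh5 and Tek were at 0 in both 5-week libraries, and Flt1 and Slco1a4 in the cuprizone one, while Ly6c1 had 11 counts in the cuprizone library and 4 in the mock library. The part of endothelial RNA in the 5-week and 5.5-week values was not tested.

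The summed level of 6 ependymal and choroid plexus markers was 38.9 CPM in the 5-week cuprizone library and 45.9 CPM in the mock library. The 5.5-week sums were 80.5, 82.4 and 91.2 CPM in cuprizone libraries, against 46.5 and 52.2 CPM in mock libraries, without overlap. At 7 weeks it was 95.6 CPM in the cuprizone library and 86.6 CPM in the mock library. Of these markers Ttr, a carrier protein made by the choroid plexus, rose at 5.5 weeks to 20.8 ± 11.5 CPM in cuprizone, against 1.39 ± 0.245 CPM in mock libraries (log2 fold change 3.91, edgeR adjusted p = 0.00694, 3 of 3). At 5 weeks Ttr had 3.11 CPM in the cuprizone library and 26.7 CPM in the mock library. At 7 weeks Ttr had 46.3 CPM in the cuprizone library and 7.21 CPM in the mock library. The sums at 5 and 7 weeks thus depend on Ttr and lie on the other side from the list's median log2 ratio. That median was 0.81 over 3 measured markers at 5 weeks and -0.56 over 5 at 7 weeks. Ttr was the only marker of these 6 called at 5.5 weeks. In 3 of the 6 all cuprizone libraries lay above both mock libraries, beside 13.2% of all genes tested, while Ccdc153 (log2 fold change -0.14) and Tmem212 (0.08) overlapped. Gpr17, a receptor of oligodendrocyte precursors, rose at 5.5 weeks to 65.7 ± 8.69 CPM in cuprizone, against 34.2 ± 2.83 CPM in mock libraries (log2 fold change 0.94, edgeR adjusted p = 0.00596, 3 of 3). No other of the 6 precursor markers was called. Their 5.5-week sum was 298.5, 352.5 and 260.5 CPM in cuprizone libraries, against 218.6 and 250.5 CPM in mock libraries. In 3 of the 6 all cuprizone libraries lay above both mock libraries, beside 13.2% of all genes tested. Olig2 (log2 fold change -0.13) and Sox10 (-0.05) were on the lower side with overlap. Gfap was higher in cuprizone libraries at the other times as well, with 9686 CPM in the cuprizone library and 902 CPM in the mock library at 5 weeks. At 7 weeks it had 3597 CPM in the cuprizone library and 1312 CPM in the mock library. Gfap was the only astrocyte marker of 8 called by edgeR at 5.5 weeks, and the median log2 fold change of that list was -0.06. In Aldh1l1, Gja1 and Gjb6, 3 of the 8, all cuprizone libraries lay below both mock libraries, beside 14.8% of all genes tested. Capg, Msn and Tagln2 were higher in the same libraries as Gfap, and the part of these markers in the members' values was not tested.

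**Figure D4:**
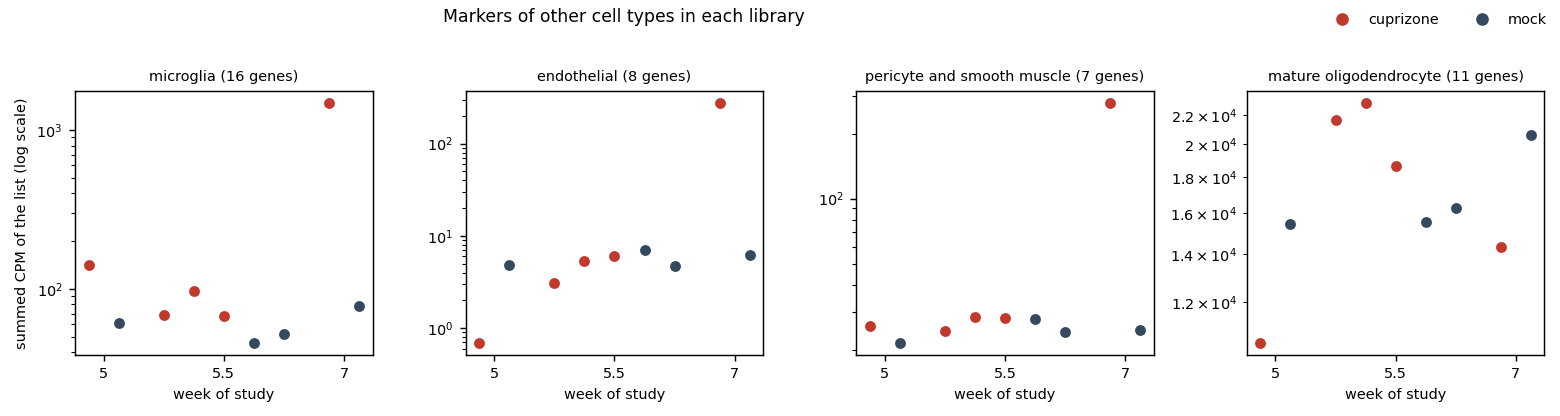
Points give the summed CPM of marker genes (log scale) in each library against the week of the study, cuprizone left of mock, for 16 microglial, 8 endothelial, 7 pericyte and smooth muscle, and 11 mature oligodendrocyte genes. The 7-week cuprizone library reaches 1473 CPM for microglia, 273 for endothelium and 276 for pericytes and smooth muscle, while mature oligodendrocyte sums in cuprizone libraries lie below mock at 5 and 7 weeks and above mock at 5.5 weeks.

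The mature oligodendrocyte list itself was mixed at 5.5 weeks. Mog, Mag and Ugt8a were called higher and Aspa lower by edgeR, with log2 fold changes of 0.78, 0.76, 0.85 and -0.80, in the same direction in 3 of 3 cuprizone libraries, and adjusted p of 0.0195, 0.0229, 0.0275 and 0.0137. Of all genes tested 1.08% were called higher and 0.392% lower. Mbp, Cnp and Cldn11 also lay above mock in all cuprizone libraries and Ermn below, without a call. With the called genes, 6 of 11 lay above and 2 below without overlap, beside 13.2% and 14.8% of all genes tested. Mbp, myelin basic protein, the most abundant of them, averaged 8697 ± 692 CPM in cuprizone and 6230 ± 886 CPM in mock libraries.

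The wider actin machinery was followed in 137 other genes in 10 lists by role, of which 128 were tested at 5.5 weeks. Of these edgeR called 2 higher and 1 lower, beside 1.08% and 0.392% of all genes tested, and their median log2 fold change was 0.04. Arpc1b, a subunit of the Arp2/3 complex that starts branched filaments, rose to 83.9 ± 12.8 CPM in cuprizone, against 35.6 ± 4.82 CPM in mock libraries, with a log2 fold change of 1.24 (SE 0.15, adjusted p = 0.00209, higher in 3 of 3 cuprizone libraries). Cd44, a hyaluronan receptor that binds ERM proteins, rose to 8.90 ± 1.98 CPM in cuprizone, against 2.89 ± 0.466 CPM in mock libraries, with a log2 fold change of 1.61 (SE 0.23, adjusted p = 0.00534, 3 of 3). Pls1, the crosslinker plastin 1, fell to 43.1 ± 2.43 CPM in cuprizone, against 64.6 ± 10.2 CPM in mock libraries, with a log2 fold change of -0.58 (SE 0.13, adjusted p = 0.0450, 3 of 3). Arpc1b stayed called when any library was left out (adjusted p 0.000676 to 0.0365). Without mock replicate 3 the adjusted p of Cd44 was 0.0779 (range 0.00364 to 0.0779). For Pls1 it was 0.362 without mock replicate 3, 0.166 without cuprizone replicate 1 and 0.179 without cuprizone replicate 3 (range 0.0398 to 0.362).

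**Figure D5:**
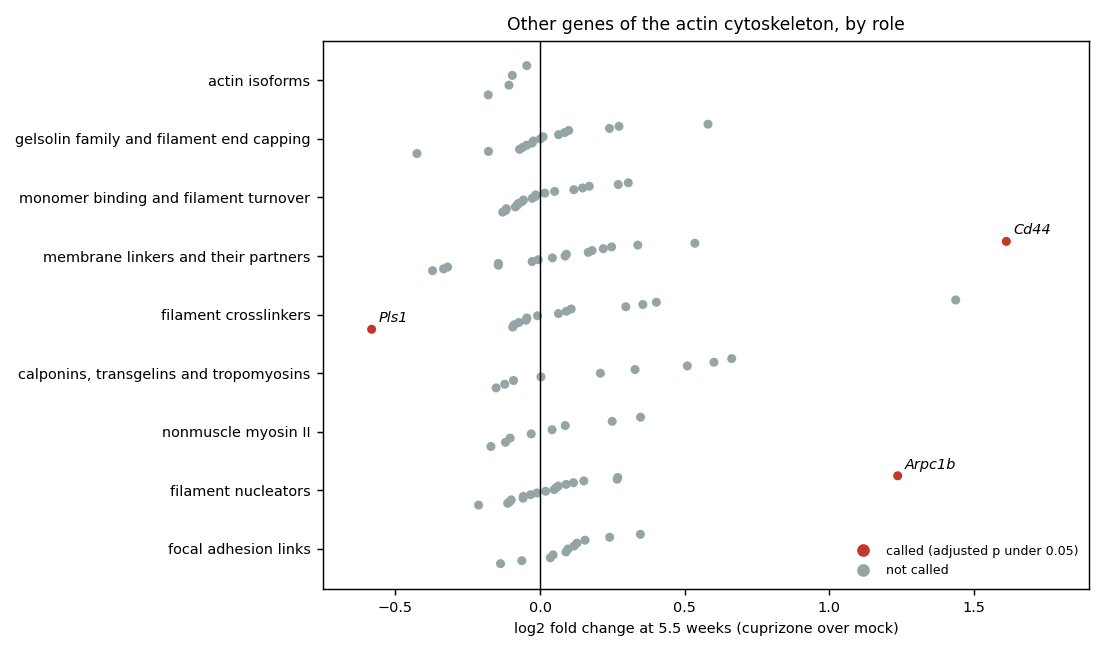
Points give the log2 fold change (cuprizone over mock) at 5.5 weeks of the tested genes in 9 of the 10 lists of the wider actin machinery, in rows by role. Cd44 (1.61), Arpc1b (1.24) and Pls1 (-0.58) are called, and the other genes lie mostly within 0.5 of 0.

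Of the cytoplasmic actin genes, Actb averaged 4362 ± 214 CPM in cuprizone and 4699 ± 331 CPM in mock libraries (SD, n = 3 and 2). Actg1 averaged 161 ± 0.695 CPM in cuprizone and 172 ± 6.18 CPM in mock libraries, and neither was called (adjusted p = 0.790 and 0.784 by edgeR). Among 18 genes of subunit binding and filament turnover the median log2 fold change was -0.02, with -0.12 (SE 0.12) for Cfl1, cofilin 1, which takes filaments apart, and -0.09 (SE 0.12) for Pfn1, profilin 1, which shares single subunits with the thymosins. The membrane linker partners had a median of 0.09, and Nf2, which encodes merlin, the nearest relative of the ERM proteins, had a log2 fold change of -0.01 (SE 0.14). Crosslinkers had a median of 0.03, and the close relatives of the members Actn4 (0.09, SE 0.12) and Pls3 (0.06, SE 0.13) had values near 0. Flnc, a filamin chiefly of muscle, averaged 2.76 ± 1.00 CPM in cuprizone and 1.03 ± 0.228 CPM in mock libraries, with a log2 fold change of 1.44 (SE 0.34, adjusted p = 0.0674 by edgeR). The calponin and tropomyosin list had the highest median, 0.21, while nucleators and focal adhesion links had medians of 0.03 and 0.10.

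In the 5-week libraries, 12 of 114 measured genes of these lists were at least 2-fold higher in cuprizone and 1 was at least 2-fold lower, beside 8.82% and 12.2% of all genes, and their median log2 ratio was 0.20. Flnc had 9.39 CPM in the cuprizone and 0.440 CPM in the mock library, a ratio of 21.4 (11.0 to 47.4). Rac1, a GTPase that drives membrane ruffling, had 454 CPM in the cuprizone and 121 CPM in the mock library. Pdpn, podoplanin, a membrane partner of ezrin and moesin, had 65.8 CPM in the cuprizone and 17.8 CPM in the mock library. Arpc1b and Cd44 were again higher, with log2 ratios of 1.68 and 1.65, and Pls1 again lower at -1.45. The others among the 12 largest were Ssh3 (log2 ratio 1.47), a cofilin phosphatase, Wwtr1 (1.45), the YAP partner TAZ, Wasf2 (1.42) and Cyfip1 (1.34), both of the WAVE complex, Add3 (1.39), an adducin that caps filaments, and Cnn3 (1.30), calponin 3.

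In the 7-week libraries, 17 of 126 measured genes of these lists were at least 2-fold higher in cuprizone and 10 at least 2-fold lower, beside 10.8% and 3.99% of all genes. With total-count scaling the split was 26 higher and 1 lower, so the number on the lower side depends on the scale. A fit of all 9 libraries, added after seeing the data, borrows the 5.5-week spread and called 24.0% of all genes higher and 15.4% lower at 7 weeks, and 14.6% and 18.5% at 5 weeks. The median log2 ratio was -0.28, beside -0.16 over all genes. Podxl, podocalyxin, which is abundant in endothelium, had 32.2 CPM in the cuprizone and 2.17 CPM in the mock library, a ratio of 14.9 (11.4 to 19.7). Cd44 had 20.1 CPM in the cuprizone and 2.05 CPM in the mock library, a ratio of 9.77 (7.40 to 13.1). Lcp1, the plastin of blood cells and microglia, had 26.1 CPM in the cuprizone and 4.52 CPM in the mock library, a ratio of 5.78 (4.76 to 7.07). Flnc (log2 ratio 2.33), Svil (1.34), a gelsolin relative, and the myosin II genes Mylk (2.02), Myl9 (1.57) and Myh9 (1.32) were higher too. On the lower side were Cttn (-1.50), cortactin, Fscn1 (-1.32), fascin, and Pls1 (-1.28). These 7-week values come from the library rich in microglial and vessel markers, whose part in them was not tested.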

How the data were processed

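Ribosome-bound RNA of the corpus callosum was sequenced in 17 libraries of 6 groups (cuprizone and mock at 5, 5.5 and 7 weeks). The deposited values are whole-number read counts per Ensembl gene, not normalized. Per the submitters' processing notes they were made with FastQC 0.11.9, STAR 2.5.4b and featureCounts 1.6.0. The notes name GRCm38/mm10 and GRCm39/mm39 without their roles, and the strand setting is not given in the sources used here. The deposited columns of 8 libraries also hold whole numbers, but 46.6% to 96.2% of their values at genes with 500 or more counts equal another library of the group plus 1 to 10, against at most 1.71% between the other libraries used. Other values differ by more: 5-week mock replicate 1 has 23522422 counts in all, against 21209517 in the replicate it repeats. The 8 were taken as no independent counts, and the library each repeats was used as 1 sample.

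Symbols came from GENCODE M21 (99.4% of batch 1 and 94.0% of batch 2 identifiers named), with 4 listed genes matched through RefSeq synonyms; exon lengths and overlaps also came from M21, and promoter windows from RefSeq. The counts were analysed with edgeR 4.0.16 in R 4.3.3 and tables with Python 3.11.15. The 5.5-week libraries were filtered with filterByExpr (minimum count 10), scaled by TMM and tested by a two-sided quasi-likelihood F test (3 residual and a median of 8.64 prior degrees of freedom), with Benjamini-Hochberg adjustment over 16086 genes and a threshold of 0.05. The p-values set the difference between the groups against a spread between these libraries that is partly borrowed from other genes. At 5 and 7 weeks, with 1 library per group, genes reaching a CPM of 5 in either library were compared by log2 ratio (prior count 2) and counted at 2-fold. Intervals of count ratios cover counting error only. On simulated data the 5.5-week test called 42% of genes changed 1.5-fold, 96% at 2-fold and 98% at 3-fold, with 7 false calls among 16086 genes. Changes were placed only in genes above a minimum mean count, and each gene was given the typical spread for its level. These shares therefore do not cover genes of low count or of larger spread.

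The members, the 10 lists of 137 other actin genes and the 9 lists of 75 cell markers were chosen with earlier results of these data known. Named among the other genes are all called at 5.5 weeks and the 12 with the largest log2 ratio past 2-fold at 5 and at 7 weeks, and among markers those of microglia and oligodendrocytes that are most abundant in mock libraries or do not overlap at 5.5 weeks. A few genes and 1 list that this rule covers are not reported here. Genes named outside this rule (Actb, Actg1, Cfl1, Pfn1, Nf2, Actn4, Pls3, and Flnc at 5.5 weeks) were chosen for their relation to the members after their values were seen. Some markers fall outside it too, among them Ttr and Gpr17, each the only called gene of its list at 5.5 weeks. Alternatives were other normalizations, DESeq2 1.42.0, limma-voom (limma 3.58.1), no filter, each library left out, a replicate block, the repeating libraries as deposited and another promoter window.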

Additional observations from a re-analysis of the deposited data

Results flagged for a closer look

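Gsn was flagged because its difference had opposite directions at different times. Its log2 ratio was -1.34 at 5 weeks, whereas all 3 cuprizone libraries lay above both mock libraries at 5.5 weeks (log2 fold change 1.12) and the log2 ratio at 7 weeks was 0.42. Ezr was flagged for the same reason, with a log2 ratio of 0.95 at 5 weeks and -0.82 at 7 weeks. Actn1 had a log2 ratio of -0.20 at 5 weeks and 0.66 at 7 weeks. The differences between times were not tested, since 5 and 7 weeks have 1 library per group, and 5 weeks cannot be told apart from batch 1.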

How the results depend on the processing

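Of 140 log2 fold changes of the 10 members at 5.5 weeks under 14 alternatives, 136 kept their sign, as did 37 of 40 log2 ratios at 5 weeks and 40 of 40 at 7 weeks. The exceptions were Tmsb4x at 5.5 weeks (0.07 without mock replicate 3), Actn1 at 5.5 weeks (-0.09 without mock replicate 3, -0.28 without cuprizone replicate 2, -0.27 with the replicate block), Rdx at 5 weeks (0.01 by total count, 0.13 with the mean of all libraries) and Tmsb4x at 5 weeks (0.0011 by total count).

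Of all genes at 5.5 weeks, 173 were called higher and 63 lower. These were 381 and 162 with no filter on low counts, and 614 and 175 with all 17 libraries as deposited. The 6 deposited libraries of 5.5 weeks gave 314 higher. Leaving out each library gave 49 (without mock replicate 3) to 189 higher and 16 (without mock replicate 3) to 85 lower. Higher calls were 57 without mock replicate 1 and 113 without cuprizone replicate 1. Lower calls were 31 without mock replicate 1, 17 without cuprizone replicate 1 and 24 without cuprizone replicate 3. The groups share only replicate numbers 1 and 3, and nothing in the labels says that a number pairs mice. With the replicate block 481 were called higher and 269 lower.

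Of the other actin genes, 2 were called higher and 1 lower. Higher calls were 5 with DESeq2, with no filter, with 9 libraries in 1 fit and with the 6 deposited libraries, 6 with the replicate block, 10 with all 17 libraries, and 1 to 3 with a library left out. Lower calls were 0 with limma-voom and with all 17 libraries, and 0 to 1 with a library left out; at an unadjusted p under 0.05, 2 were lower in both of those fits and 2 to 5 with a library left out, and edgeR and DESeq2 each called 1. At 5 weeks (12 higher, 1 lower) the lower count was 4 with a CPM minimum of 1 and 0 with group means of the deposited libraries. At 7 weeks (17 and 10) total-count scaling gave 26 and 1. A fit of 9 libraries that borrows the 5.5-week spread, added after seeing the data, called 29 higher and 13 lower at 5 weeks and 29 and 44 at 7 weeks. The causes of these changes were not tested. A single library per group limits everything at 5 and 7 weeks, and a low count limits Capg, Flna and Tagln2.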
